A study of Mus musculus with 6 samples.

Results

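A set of 8 genes of red blood cells was examined in RNA of whole mouse hearts taken at embryonic day 11.5. It holds the transcription factor genes Gata1 and Klf1, the haem synthesis gene Alas2, the membrane genes Slc4a1, Epb42, Sptb and Rhag, and the haemoglobin chaperone gene Ahsp. The members were taken by name and looked up by symbol among the 38918 genes of the deposited table. Rows for 6 members carried the listed symbol, and Epb42 was found through its Ensembl identifier under the older symbol Epb4.2. No row carried the symbol Ahsp, so that gene was not analysed here, and the values below cover 7 of 8 members. The conditional knockout embryos carried 2 floxed alleles of Tie2, the angiopoietin receptor gene whose symbol is Tek, and the Nfatc1Cre driver of the endocardial lineage. The control embryos were littermates with 1 floxed and 1 wild-type allele. The sources used here do not say whether they also carried Cre. Both groups were on a C57/BL6 background, and each had 3 libraries.

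Red cells of the embryo arise first in the yolk sac and circulate through the beating heart as large nucleated cells, while the fetal liver begins to make a second generation. GATA1 and KLF1 are the DNA-binding factors that switch on the genes of this lineage, among them those for globin chains, haem enzymes and the membrane skeleton. ALAS2 is the red cell form of the first and rate-limiting enzyme of haem synthesis. Band 3, the product of Slc4a1, exchanges chloride for bicarbonate and anchors the membrane to a spectrin mesh, which includes the beta-spectrin encoded by Sptb. The product of Epb42 binds to band 3, and the product of Rhag is an ammonium and gas channel of the Rh complex. A whole heart holds blood in its chambers and vessels, and the sources used here do not say whether it was washed out before extraction.

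RNA of 18 hearts per genotype was extracted, and the series text says it was combined and divided into the 3 libraries of that genotype. Values are FPKM, which divide the fragments of a gene by its length and by the size of the library. They summed to between 531209 and 582261 per conditional knockout library and between 481334 and 534409 per control library, and the depth in reads is unknown. The libraries of a genotype differed in some transcripts by more than a pool divided evenly would. The female transcript Xist stood at 32.9, 0.0295 and 0.0324 FPKM in conditional knockouts and at 9.0, 40.7 and 0.0171 FPKM in controls. The liver marker Afp stood between 0.249 and 123 FPKM in conditional knockouts and between 11.2 and 51.5 FPKM in controls. The sources used here do not say which hearts went into which library, and the p-values measure the spread between these libraries, whatever its source. Tek checked the labels, at 3.38, 3.13 and 3.13 FPKM in conditional knockouts against 22.4, 25.7 and 16.6 FPKM in controls. Heart muscle transcripts were abundant in every library, with Actc1, the cardiac actin gene, at 4329 to 5904 FPKM in conditional knockouts and 5524 to 7145 FPKM in controls. Conditional knockout replicate 1 stood apart from the other 2 conditional knockouts in erythroid, muscle and sex-linked transcripts. It was the only conditional knockout with Xist above 1 FPKM, and the Y-linked Eif2s3y stood at 34.1 FPKM in it, against 52.8 and 55.6 FPKM in the other conditional knockouts and 17.7 to 41.0 FPKM in controls. It had the lowest level of 6 of the 7 erythroid members, and its 8 heart muscle markers summed to 9793 FPKM, against 13784 to 14884 FPKM in the other 2 conditional knockouts and 14073 to 14697 FPKM in controls. Results are therefore also given without it.

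None of the 7 members passed the test between the genotypes in limma, a linear model fitted across the 12988 genes that averaged 1 FPKM or more, on log2(FPKM + 1). All 7 passed that filter. After Benjamini-Hochberg adjustment, at the 0.05 level, 0 members were lower and 0 higher. Over all genes tested, 0.123% were lower and 0.0539% higher. Taken without adjustment, limma gave 0 members a p under 0.05, against 6.68% of all genes. The conditional knockout and control libraries overlapped for every member, while they did not overlap for 13.4% of all genes tested. All 7 fitted differences lay below 0, as did 53.2% of all genes, and their median was -0.16 beside -0.01 over all genes. The 8 heart muscle markers had a like shift, with 7 below 0 and a median of -0.17, and its part in the erythroid values was not tested. Without conditional knockout replicate 1 the median of the members was 0.06, so that the shared sign did not hold without that library. It was set apart partly for its low member levels, so a rise of the median on leaving it out was built into the choice. Without any other 1 library the median stayed below 0, from -0.36 without conditional knockout replicate 2 to -0.02 without control replicate 2. Conditional knockout replicate 2 was the library highest in liver markers. With it left out, the members ran from -0.64 for Klf1 to -0.18 for Rhag.

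Upstream regions were searched for the letters that GATA1 and KLF1 are known to bind, and 4 are shown as examples. RefSeq sequence on GRCm38.p6, from 250 bases before to 50 bases after the annotated start, was at hand for 6 of the 8 members, namely Alas2, Klf1, Epb42, Sptb, Rhag and Gata1. A GATA motif was searched on both strands as AGATAA or AGATAG and as TGATAA or TGATAG, and a CACC-type motif of the kind bound by KLF1 as CCNCNCCC, which G-rich promoters match often and may match in overlapping frames. The GATA motif was found in 5 of the 6 windows and in 29.8% of all 32851 windows of that length in the mouse table. The CACC-type motif was found in 3 of the 6 and in 49.5% of all windows. Both were present in Alas2 and Sptb, 2 of the 6, and in 10.2% of all windows. These matches describe letters only, and no binding was measured. In the 4 windows below, written 5′ to 3′ on the strand of the gene, capitals mark every match. The Alas2 window lies at chrX:150547167-150547466 (plus strand) with a GATA motif from position -86 to -81, the Klf1 window at chr8:84901732-84902031 (plus strand) with one from -80 to -75, the Rhag window at chr17:40810899-40811198 (plus strand) with one from -31 to -26, and the Gata1 window at chrX:7967861-7968160 (minus strand) with 3 CACC-type matches and no GATA motif, at a start that lies inside the longer gene annotated in GENCODE.
Alas2: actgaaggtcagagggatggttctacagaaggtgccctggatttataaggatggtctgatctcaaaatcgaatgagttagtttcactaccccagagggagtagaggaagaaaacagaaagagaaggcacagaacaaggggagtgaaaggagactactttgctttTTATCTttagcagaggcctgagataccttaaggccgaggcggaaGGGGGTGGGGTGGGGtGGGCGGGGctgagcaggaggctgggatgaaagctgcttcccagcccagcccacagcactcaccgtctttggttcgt
Klf1: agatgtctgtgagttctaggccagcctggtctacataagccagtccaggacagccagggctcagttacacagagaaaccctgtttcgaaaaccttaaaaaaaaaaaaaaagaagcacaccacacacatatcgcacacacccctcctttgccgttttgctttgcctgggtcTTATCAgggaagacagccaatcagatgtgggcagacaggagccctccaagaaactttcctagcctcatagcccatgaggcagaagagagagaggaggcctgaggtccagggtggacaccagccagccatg
Rhag: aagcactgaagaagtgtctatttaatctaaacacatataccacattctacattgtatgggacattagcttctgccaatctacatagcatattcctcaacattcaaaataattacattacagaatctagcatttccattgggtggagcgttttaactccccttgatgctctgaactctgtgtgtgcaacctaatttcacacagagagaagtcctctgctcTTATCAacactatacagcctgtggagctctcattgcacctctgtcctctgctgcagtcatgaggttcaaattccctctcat
Gata1: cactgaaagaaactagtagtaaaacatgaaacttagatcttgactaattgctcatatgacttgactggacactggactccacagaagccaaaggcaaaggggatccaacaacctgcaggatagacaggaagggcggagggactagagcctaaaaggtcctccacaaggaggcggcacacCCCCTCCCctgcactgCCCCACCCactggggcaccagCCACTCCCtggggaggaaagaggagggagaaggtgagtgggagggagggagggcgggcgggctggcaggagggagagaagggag

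Gata1, which encodes the zinc finger factor required for red cells and platelets, is a protein-coding gene on chromosome X from 7959260 to 7978071 (GRCm38, minus strand). It stood at 9.65, 14.2 and 8.89 FPKM in conditional knockouts and at 15.7, 12.1 and 7.75 FPKM in controls. The highest and the lowest value of the 6 were both controls, so the conditional knockout range lay inside the control range. The means were 10.9 ± 2.87 FPKM in conditional knockouts and 11.9 ± 4.0 FPKM in controls (SD, n = 3 each). This is a log2 fold change of -0.09 ± 0.26 (SE, limma, adjusted p = 0.966), with a 95% interval of -0.69 to 0.52. It was -0.02 without conditional knockout replicate 1, 0.03 without conditional knockout replicate 3 and 0.13 without control replicate 1.

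Klf1, the gene for the erythroid Krüppel-like factor that acts on the adult beta-globin promoter, lies on chromosome 8 from 84901928 to 84905291. Its values were 9.63, 21.4 and 11.3 FPKM in conditional knockouts and 18.8, 20.4 and 12.4 FPKM in controls. Replicate 2 was high and replicate 3 low in both groups, while the replicate 1 libraries went apart, at 0.512 times the control level in the conditional knockout. The group means were 14.1 ± 6.33 FPKM in conditional knockouts and 17.2 ± 4.2 FPKM in controls (SD, n = 3 each). Klf1 had the most negative log2 fold change of the members, at -0.32 ± 0.30 (SE, limma, adjusted p = 0.842), and the widest interval, from -1.01 to 0.38. It was -0.64 without conditional knockout replicate 2 (limma unadjusted p = 0.0242, adjusted p = 0.772, with adjusted values of 0.546 to 0.99987 over all alternatives) and -0.10 without conditional knockout replicate 1.

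Alas2 lies on chromosome X from 150547375 to 150570638 (plus strand). The Alas2 mRNA carries an iron-responsive element, a hairpin by which iron regulatory proteins hold back its translation when iron is short. The loop letters CAGTGN were found, at the same site, in 2 annotated 5′ untranslated regions of Alas2 in GENCODE M21, of 126 and 42 bases. Of 50094 annotated 5′ untranslated regions, with a median length of 171 bases, 25.1% hold these letters. The site, at chrX:150547461-150547483 on the plus strand with the loop in capitals, is shown because RNA levels alone do not report on control at this step.
Alas2 element: gttcgtcctCAGTGCagggcaac

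The level of Alas2 was 65.3, 121 and 93.8 FPKM in conditional knockouts and 101, 123 and 83.5 FPKM in controls. Replicate 2 of each genotype was nearly equal, at a ratio of 0.986, and the spread within each group exceeded the difference between them. The means were 93.5 ± 28.0 FPKM in conditional knockouts and 102 ± 19.9 FPKM in controls (SD, n = 3 each). The fitted difference was -0.16 ± 0.24 on the log2 scale (SE, limma, adjusted p = 0.910), with a 95% interval of -0.72 to 0.41, and was 0.0767 without conditional knockout replicate 1. On the opposite strand, exons of Apex2 overlap 311 bases of the Alas2 exons. The sources used here do not give the strand setting of the counting. Apex2 stood at 7.45 to 9.25 FPKM in conditional knockouts and 7.74 to 7.88 FPKM in controls, far below Alas2.

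Slc4a1 was the most abundant member per length. This gene of chromosome 11, from 102348824 to 102366203 on the minus strand, had 89.0, 152 and 126 FPKM in conditional knockouts and 138, 175 and 109 FPKM in controls. The lowest library was conditional knockout replicate 1 and the highest control replicate 2, a 1.97-fold range. Conditional knockouts averaged 122 ± 31.5 FPKM and controls 141 ± 32.9 FPKM (SD, n = 3 each). The log2 fold change of -0.21 ± 0.24 (SE, limma, adjusted p = 0.872; 95% interval -0.77 to 0.34) came to -0.00082 without conditional knockout replicate 1.

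Epb42 on chromosome 2, from 121017891 to 121037072, stood at 15.6, 28.1 and 26.8 FPKM in conditional knockouts and at 21.0, 29.6 and 21.9 FPKM in controls. Conditional knockout replicates 2 and 3 both exceeded control replicates 1 and 3. The means differed by less than either spread, at 23.5 ± 6.88 FPKM in conditional knockouts and 24.2 ± 4.72 FPKM in controls (SD, n = 3 each). The fitted difference was -0.07 ± 0.24 on the log2 scale (SE, limma, adjusted p = 0.972; 95% interval -0.62 to 0.49). Leaving out conditional knockout replicate 1 gave 0.19, and leaving out control replicate 2 gave 0.08.

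Sptb, a long gene of chromosome 12 from 76580488 to 76710547 that is also used in muscle, gave 13.4, 25.1 and 20.9 FPKM in conditional knockouts and 19.3, 29.8 and 18.3 FPKM in controls. It had the widest range of the members over the 6 libraries, 2.23-fold. Replicate 2 was the highest library of both genotypes. The conditional knockout mean was 19.8 ± 5.95 FPKM and the control mean 22.5 ± 6.37 FPKM (SD, n = 3 each), giving a log2 fold change of -0.19 ± 0.26 (SE, limma, adjusted p = 0.900; 95% interval -0.79 to 0.42). Without conditional knockout replicate 1 it was 0.0584, and without control replicate 2 it was 0.0255.

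Rhag on chromosome 17, from 40811126 to 40840754, varied least. Its values were 11.2, 19.0 and 15.3 FPKM in conditional knockouts and 17.4, 15.0 and 12.9 FPKM in controls, a 1.69-fold range. Here the highest library was conditional knockout replicate 2, and the group means were almost equal, at 15.2 ± 3.88 FPKM in conditional knockouts and 15.1 ± 2.27 FPKM in controls (SD, n = 3 each). The genotypes differed by -0.01 ± 0.19 on the log2 scale (SE, limma, adjusted p = 0.995; 95% interval -0.46 to 0.44), and by 0.0037 after quantile normalization. They differed by 0.17 without conditional knockout replicate 1 and by 0.0896 without control replicate 1.

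**Figure D1:**
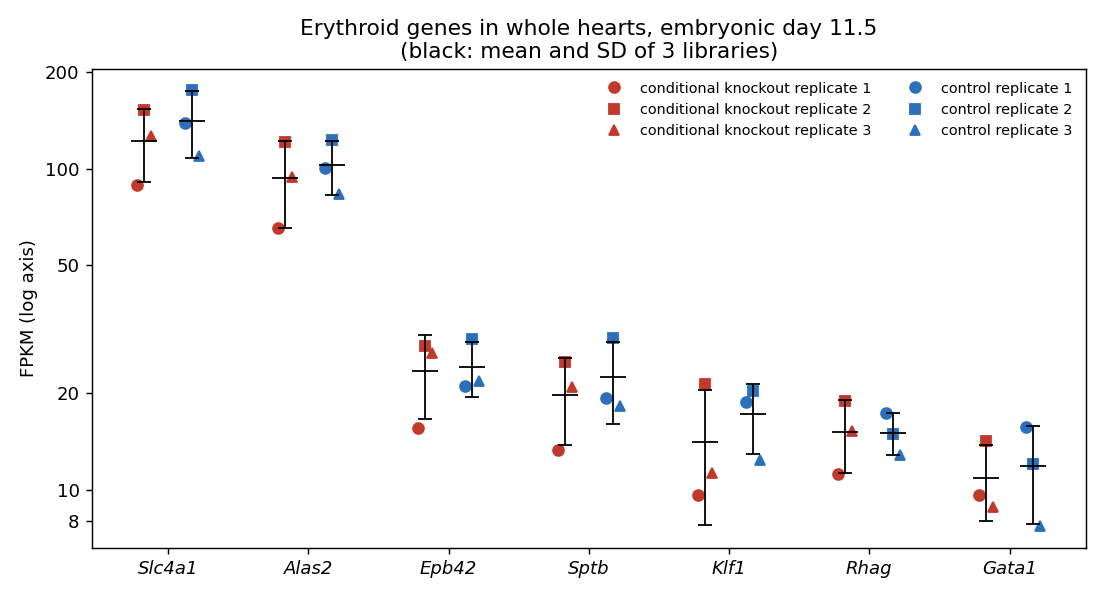
Level of each erythroid gene in FPKM on a log axis, by library, in conditional knockouts (red, left of each pair) and controls (blue, right), with the mean and SD of 3 libraries in black. Conditional knockout and control libraries overlap for all 7 genes, and conditional knockout replicate 1 (red circle) is lowest for all but Gata1.

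A missed threshold does not show equal levels. The limma 95% intervals, on the log2 scale, reached from -1.01, the lower end for Klf1, to 0.52, the upper end for Gata1. Each holds for its own gene, and together they give no joint bound on the members. The standard errors of the members had a median of 0.24, against 0.13 over all genes tested, so the erythroid genes were measured with more spread between libraries than most. The direction between same-numbered libraries was not stable. In replicate 1, all 7 members were lower in the conditional knockout, with a geometric mean 0.638 times that of the control. In replicate 2, 3 members were higher and 4 lower, with a ratio of 1.01. In replicate 3, 6 were higher and 1, Klf1, was lower, with a ratio of 1.12. With the replicate number as a block in limma, 0 members passed the adjusted threshold, where 0.131% of all genes did, and 0 had an unadjusted p under 0.05.

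**Figure D2:**
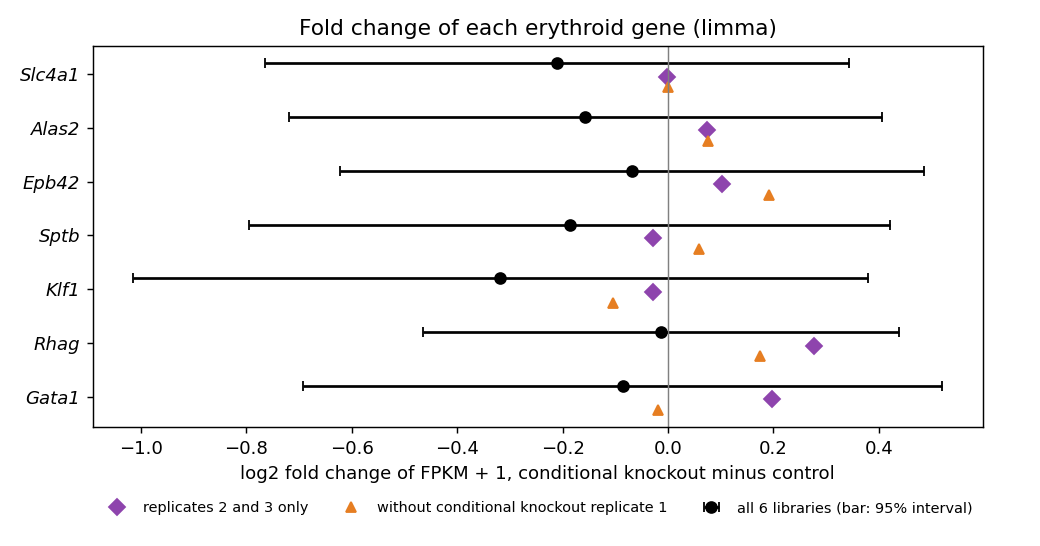
Log2 fold change of FPKM + 1 for each erythroid gene, conditional knockout minus control, from limma with all 6 libraries (black, with the 95% interval), with replicates 2 and 3 only (purple) and without conditional knockout replicate 1 (orange). Every interval spans 0, and Alas2, Epb42 and Rhag move from below to above 0 in both smaller sets.

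The members moved together from library to library. Their geometric mean was 19.96, 35.8 and 26.9 FPKM in conditional knockout replicates 1, 2 and 3 and 31.3, 35.4 and 24.0 FPKM in control replicates 1, 2 and 3. Conditional knockout replicate 2 was among the 2 highest libraries for all 7 members, and control replicate 2 for 5. Across the 6 libraries the Pearson correlation of log2 FPKM between 2 members ranged from 0.23 to 0.98 over 21 pairs, with a median of 0.81. These 6 points share their libraries and scaling, so the correlations describe this set of libraries. The closest pair was Alas2 and Slc4a1, at 0.98, and the most distant Epb42 and Gata1.

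**Figure D3:**
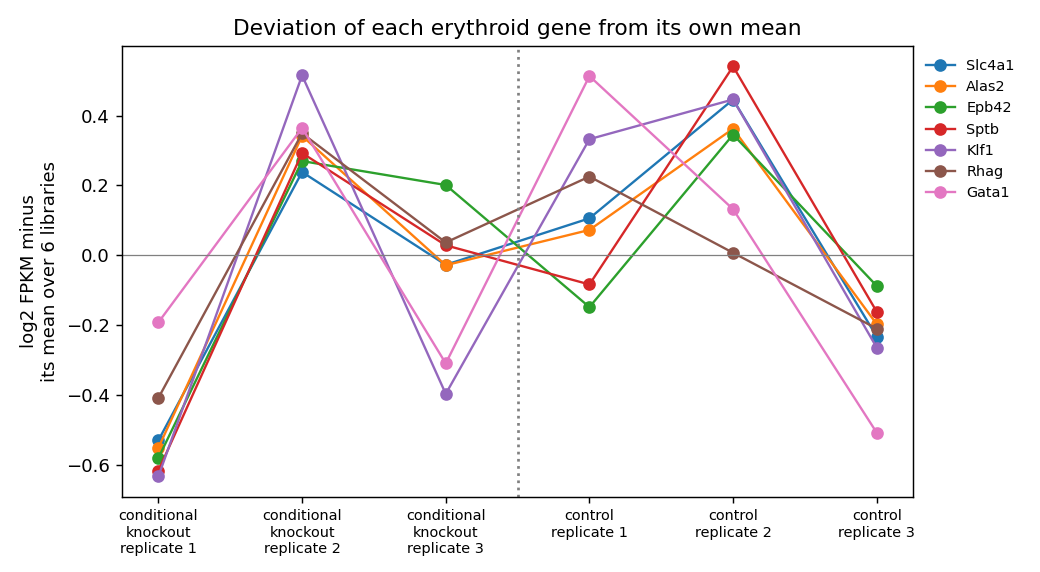
Log2 FPKM of each erythroid gene minus its own mean over the 6 libraries, by library; the lines join the values of a gene and imply no order. All 7 genes lie below their mean in conditional knockout replicate 1 and control replicate 3 and above it in conditional knockout replicate 2, while in conditional knockout replicate 3 Gata1 and Klf1 lie furthest below it.

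To set the shared level aside, each member was expressed against the mean log2 level of the other 6 in the same library. For Alas2 this removed most of the spread: its within-group SD was 0.37 on the log2 scale as a level and 0.07 relative to the others. For Slc4a1 it was 0.37 and 0.09. Gata1 kept most of its spread, with 0.45 and 0.37. The relative level of Gata1 was -1.22, -1.55 and -1.86 in conditional knockout replicates 1, 2 and 3 and -1.16, -1.81 and -1.90 in control replicates 1, 2 and 3. It was thus highest in replicate 1 of both genotypes, and the genotypes differed by 0.08. Epb42 showed the reverse, with its lowest relative values in replicate 1, at -0.42 in the conditional knockout and -0.67 in the control, and its highest in replicate 3, at -0.01 and -0.15. Conditional knockouts and controls overlapped in this relative level for all 7 members. Klf1 had the largest difference, at -1.18 ± 0.30 in conditional knockouts and -0.96 ± 0.13 in controls (SD, n = 3 each).

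**Figure D4:**
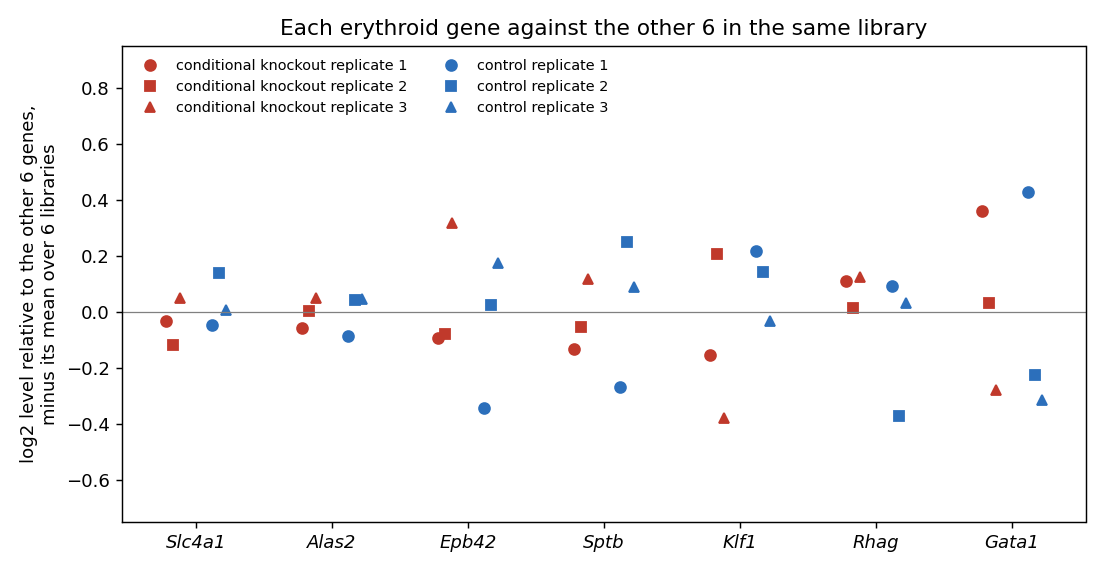
Log2 level of each erythroid gene relative to the mean of the other 6 in the same library, centred on its mean over 6 libraries, in conditional knockouts (red, left) and controls (blue, right). Alas2 and Slc4a1 stay close to 0 in every library, and Gata1 is high in replicate 1 (circles) of both genotypes.

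By role, the regulator genes Gata1 and Klf1 had a geometric mean of 9.64, 17.4 and 10.05 FPKM in conditional knockouts and 17.2, 15.7 and 9.82 FPKM in controls. The membrane genes Slc4a1, Epb42, Sptb and Rhag had 21.4, 37.8 and 32.2 FPKM in conditional knockouts and 31.5, 39.0 and 27.4 FPKM in controls. The ratio of regulator to membrane genes was 0.408 ± 0.0837 in conditional knockouts and 0.436 ± 0.0989 in controls (SD, n = 3 each), a difference smaller than either spread. The ratio of Alas2 to the membrane genes was steadier, at 3.06 ± 0.151 in conditional knockouts and 3.13 ± 0.0803 in controls (SD, n = 3 each). In bulk RNA, fewer red cells and less of these transcripts per red cell cannot be told apart, and neither the regulator ratio nor the Alas2 ratio separated the genotypes.

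The order of levels per length was Slc4a1, Alas2, Epb42, Sptb, Klf1, Rhag and Gata1. Slc4a1 exceeded Alas2, and Alas2 exceeded Epb42, in 6 of 6 libraries, and the gap from Alas2 to Epb42 was the widest, with geometric means over all libraries of 95.7 and 23.3 FPKM. Epb42 exceeded Sptb in 5 of 6 libraries. Klf1 and Rhag could not be ordered, with Klf1 higher in 3 of 6 libraries, and Gata1 lay below Rhag in all 6.

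Other genes of haem synthesis and iron supply likewise held no gene past the threshold. Of 17 tested besides Alas2, limma called 0, and 10 lay below 0 and 7 above, with a median log2 fold change of -0.01. Without adjustment limma gave 1 gene a p under 0.05, Tfrc, named for that reason after its values were seen. Tfrc encodes the transferrin receptor, which takes iron into cells of many types. It stood at 47.2, 47.6 and 41.5 FPKM in conditional knockouts and at 32.5, 29.0 and 36.4 FPKM in controls. The 2 groups did not overlap, but the log2 fold change of 0.47 ± 0.12 (SE, limma, adjusted p = 0.425) missed the threshold over all genes. Among the most abundant of the list, Slc25a37, the mitochondrial iron importer gene, was at 104 ± 17.2 FPKM in conditional knockouts and 105 ± 17.9 FPKM in controls (SD, n = 3 each). The enzyme genes Urod and Fech, which act after ALAS2, had log2 fold changes of -0.01 ± 0.13 and -0.03 ± 0.17 (SE).

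Of 16 further genes of the red cell membrane and skeleton, limma called 0, with 11 below 0, 5 above and a median of -0.04. At an unadjusted p under 0.05 there was 1, named after its values were seen, the water channel gene Aqp1, which endothelium also uses (log2 fold change -0.36 ± 0.13, SE, limma, adjusted p = 0.742). With the replicate block in limma there were 3, Ank1 and Aqp1 lower and Cd24a higher, and 0 were called. The share of all genes under that p with the block is not given here. Slc2a1, a glucose transporter gene shared with many tissues, stood at 179 ± 17.2 FPKM in conditional knockouts and 184 ± 30.5 FPKM in controls (SD, n = 3 each). Cd24a, also expressed well outside blood, stood at 139 ± 33.1 FPKM in conditional knockouts and 107 ± 9.22 FPKM in controls. Epb41, the gene for the protein that joins spectrin to actin, was at 68.7 ± 16 FPKM in conditional knockouts and 68.7 ± 16.2 FPKM in controls. Tmod1, which caps actin filaments in red cells and in muscle, had a log2 fold change of -0.16 ± 0.24 (SE).

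The list of erythroid regulators had the lowest median of the 4, at -0.20 for 12 genes tested besides Gata1 and Klf1, with 9 below 0 and 3 above, and limma called 0. With Gata1 and Klf1 included, the median was -0.09 without control replicate 2, -0.10 without conditional knockout replicate 1 and -0.37 without conditional knockout replicate 2. Without adjustment limma gave 3 of them a p under 0.05, Zfpm1, Gata2 and Cbfa2t3, where 6.68% of all genes had one. Zfpm1 encodes FOG1, the partner protein of GATA1. It stood at 17.7, 29.7 and 23.4 FPKM in conditional knockouts and at 30.4, 39.7 and 29.6 FPKM in controls, with a log2 fold change of -0.49 ± 0.20 (SE, limma, adjusted p = 0.742). Gata2, which acts in blood progenitors and in endothelium, and Cbfa2t3 were named after their values were seen. Gata2 was at 3.83, 3.54 and 2.89 FPKM in conditional knockouts against 5.99, 5.51 and 5.47 FPKM in controls (adjusted p = 0.233, limma). Cbfa2t3, a corepressor gene, was at 2.78, 3.74 and 2.92 FPKM in conditional knockouts against 4.13, 6.09 and 4.97 FPKM in controls (adjusted p = 0.559, limma). In both, the libraries of the genotypes did not overlap, as in 13.4% of all genes tested. Beside this, the 6 endothelial markers summed to between 131 and 163 FPKM in conditional knockouts and between 196 and 226 FPKM in controls. Of the 6 log2 fold changes, 5 lay below 0 and that of Emcn above, and limma called 1, Tek. Tek is the deleted gene, at 3.13 to 3.38 FPKM in conditional knockouts against 16.6 to 25.7 FPKM in controls. Its fall, and its share of the gap between the sums, were set by the design. Apart from Tek, the libraries of the genotypes did not overlap for Cdh5, Tie1, Kdr and Pecam1. Their log2 fold changes were -0.71, -0.74, -0.40 and -0.38 (limma, adjusted p = 0.189, 0.0572, 0.336 and 0.638). Emcn, at 0.08, overlapped. The part of endothelium in the regulator values was not tested. Tal1 and Nfe2, which bind beside GATA1 at red cell genes, had log2 fold changes of -0.20 ± 0.17 and -0.24 ± 0.25 (SE), and the broadly expressed cofactor gene Ldb1 one of 0.02 ± 0.15.

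Among 12 genes of late red cell stages, limma called 0, and 0 had an unadjusted p under 0.05. The median was -0.12, with 10 below 0 and 2 above. Prdx2, a peroxide-removing enzyme gene of red cells, stood at 341 ± 39.4 FPKM in conditional knockouts and 371 ± 45.0 FPKM in controls (SD, n = 3 each). Car2, a carbonic anhydrase gene, stood at 144 ± 39.8 FPKM in conditional knockouts and 155 ± 33.0 FPKM in controls. Bnip3l, needed for the clearance of mitochondria, and Hemgn had log2 fold changes of -0.02 ± 0.20 and -0.04 ± 0.32 (SE).

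**Figure D5:**
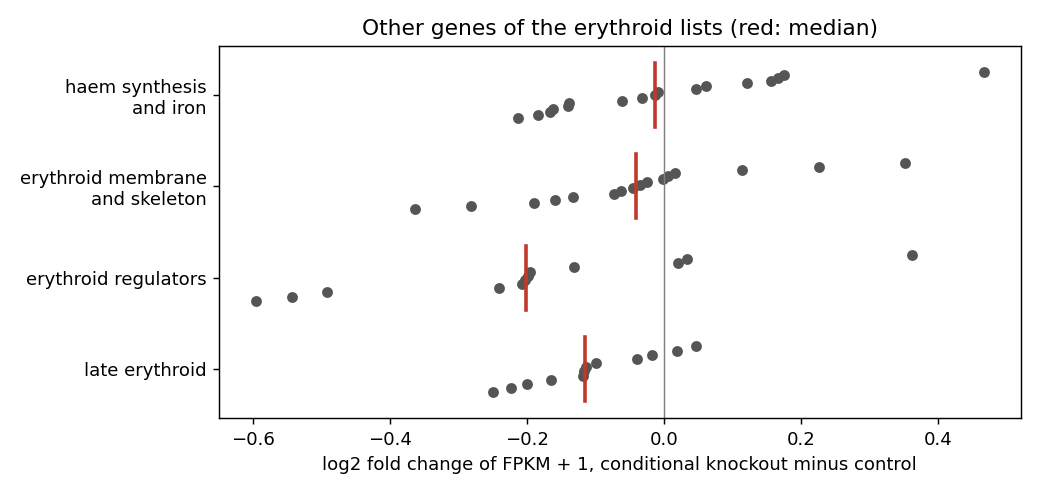
Log2 fold change of FPKM + 1, conditional knockout minus control, for each tested gene of 4 erythroid lists other than the members (dots; red bars are medians). The medians are -0.01, -0.04, -0.20 and -0.12 from top to bottom, and no gene shown passed the limma threshold.

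The globin libraries also overlapped between the genotypes for 2 of the 4 most abundant genes. Hbb-bh1, an embryonic beta-type globin gene, stood at 3904, 7077 and 4831 FPKM in conditional knockouts and 7698, 5334 and 4169 FPKM in controls, and Hba-a1, an adult alpha-globin gene with a near-identical neighbour, at 2369, 3622 and 2967 FPKM in conditional knockouts and 3718, 5339 and 3001 FPKM in controls. Hbb-y and Hba-x, the most abundant embryonic globins, were listed at 0 in all 3 controls, against 17557 to 23965 FPKM and 11129 to 18709 FPKM in conditional knockouts. An exact 0 in such a table can be a failed estimate, so no fold is given. For that reason neither gene is read here as a difference between the genotypes. Limma called both, and they are 2 of the 7 genes behind the share of 0.0539% higher. The other 6 of the 8 globin genes tested lay below 0, where 53.2% of all genes did. Their log2 fold changes ran from -0.41 ± 0.25 for Hba-a1 to -0.12 ± 0.29 for Hbb-bh1 (SE, limma, adjusted p = 0.808 and 0.957).

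The 10 genes whose log2(FPKM + 1) over the 6 libraries was most like the mean standardized profile of the members had a Pearson r of 0.98 to 0.99. The median r of all genes tested was 0.09. They were Ccnb2, Cdkn3, Car2, Chaf1b, Chaf1a, Eif4e2, Rhd, Eif4a3, Brms1 and Wdr7. Of these, 2 belong to the lists described here, Car2 and the Rh blood group gene Rhd. Ccnb2 and Cdkn3 act in cell division, and Chaf1a and Chaf1b encode subunits of a histone chaperone of DNA replication. Ccnb2, the closest, stood at 52.5, 69.7 and 61.6 FPKM in conditional knockouts and at 66.4, 68.0 and 58.3 FPKM in controls. Without conditional knockout replicate 1 the 10 genes had an r of 0.95 to 0.99, over 5 libraries. The 10 were picked on these same libraries and profile, so this does not show that the likeness is robust. Such an r leaves out the size of the changes, and Wdr7 ranged only from 3.69 to 4.29 FPKM over the 6 libraries. The median r of list genes with the profile was 0.90 for the late genes, 0.81 for haem and iron, 0.72 for the membrane and 0.61 for the regulators. It was 0.63 for the 8 heart muscle markers and 0.61 for the 8 liver markers tested, as high as for the regulators.

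Liver is a blood-forming organ at this age, and transcripts of its marker genes varied more than those of blood. The 10 liver markers summed to 10.5, 271 and 4.68 FPKM in conditional knockouts and to 103, 27.6 and 34.2 FPKM in controls. Conditional knockout replicate 2 was highest both in liver markers and in the geometric mean of the members, whereas control replicate 2, next highest in the members, was the lowest control in liver markers. Afp and Alb, both among these markers, were above 0 in all 6 libraries, and Fgb was listed at 0 in conditional knockout replicate 3. Neither the tissue that gave these transcripts nor its part in the erythroid levels was tested.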

How the data were processed

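RNA of whole hearts was sequenced in 3 conditional knockout and 3 control libraries, grouped by their titles. The authors deposited FPKM values for 38918 genes. The submitters' processing notes list the build mm10 and the tools Cuffdiff, Cufflinks 2.2.1, HTSeq and TopHat2 2.0.9, without their roles. The sources used here give neither the annotation release nor the strand setting, nor how reads with several matches were handled. FPKM divides by a library total, so abundant transcripts move the values of all others.

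Values were taken as log2(FPKM + 1), which understates changes of low genes, over the 12988 genes that averaged 1 FPKM or more. The test was limma (3.58.1, under R 4.3.3), fitted without a block and with its variance trend on mean level, checked on simulated data, with 4 residual and 3.33 prior degrees of freedom. Adjustment ran over all genes tested, and differences are conditional knockout minus control. The members and lists were chosen with earlier results of these data known. From each list up to 4 genes past the threshold were named, or else those with the highest mean, together with the 10 genes most like the members, leaving out predicted and clone-named genes. Single marker genes were picked after their values were seen, and 1 gene that the rule names is not reported here. Gene positions are from GENCODE M21 on GRCm38, the assembly behind mm10, where 37607 identifiers were found. Sequences are from RefSeq and GENCODE M21.

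Relative depth was looked for in genes below 0.3 FPKM throughout, where whole reads make ratios between libraries pile up. In windows of 0.02 on the log2 scale, 7.27% to 11.0% of these genes shared the modal ratio between replicates 2 and 3 of either genotype, but 1.26% to 1.58% between a replicate 1 library and any of those, and 2.53% between both replicate 1 libraries. Both replicate 1 libraries were therefore left out together in 1 alternative.

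Replicate numbers come from the titles. To see whether they pair libraries, each library was set against its group mean. Over 12805 genes detected in all 6 libraries, these residuals had a correlation across genotypes of 0.27 in replicate 1, 0.11 in replicate 2 and 0.44 in replicate 3. Over every gene tested the correlations came to 0.19, 0.03 and 0.23. There, conditional knockout replicate 3 against control replicate 2 had 0.06, above the 0.03 of replicate 2. The main fit used no pairs. The numbers were taken as pairs in the block and in ratios between same-numbered libraries, with replicate 2 uncertain. A total of 15 alternatives were run, changing the pseudocount, the filter, the scaling, the trend, the block or the libraries.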

Additional observations from a re-analysis of the deposited data

How the results depend on the processing

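In none of the 15 alternatives did limma call a member, the replicate block included. Over all genes, 16 were lower and 7 higher; with no filter 7 were lower, within replicates 2 and 3 there were 8, and without any 1 library 4 to 9. The higher genes numbered 6 to 11 without any 1 library. The replicate block gave 11 lower and 6 higher genes. Among list genes other than the members, limma with the block gave an unadjusted p under 0.05 to 1 haem and iron gene and 3 membrane genes. It gave one to 3 regulators and 0 late genes. These counts have no share over all genes beside them, so nothing is read from them. Signs of the members were less stable. Within replicates 2 and 3 the log2 fold changes were 0.0733 for Alas2, 0.10 for Epb42, 0.28 for Rhag and 0.20 for Gata1, all above 0, and with quantile normalization Rhag was at 0.0037. Without any 1 library they ran from -0.36 to 0.0767 for Alas2, -0.21 to 0.19 for Epb42, -0.37 to 0.0584 for Sptb, -0.18 to 0.17 for Rhag and -0.34 to 0.13 for Gata1. Slc4a1 and Klf1 stayed below 0 in all 15, at -0.00082 and -0.03 at the nearest. The median of the members was 0.07 within replicates 2 and 3 and -0.36 to 0.06 without any 1 library. With FPKM rescaled without globins it was -0.20, beside -0.05 over all genes. The globins summed to between 36503 and 56021 FPKM in conditional knockouts. In controls, where Hbb-y and Hba-x were listed at 0, they summed to between 9433 and 14178 FPKM. Without conditional knockout replicate 1 the medians of the haem, membrane and late lists, members included, were 0.08, 0.10 and 0.01, against -0.02, -0.05 and -0.12 with it, while that of the regulators was -0.10 against -0.20. The cause of these shifts was not tested. The number of libraries limits the precision, and the depth in reads is unknown.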

Other observations

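Other blood cells in these hearts were read from their markers. Of 7 tested macrophage and leukocyte genes all lay above 0 in limma and 0 were called, with 3 at an unadjusted p under 0.05, where 6.68% of all genes had one. The 10 such genes with a row summed to 25.1, 25.6 and 23.6 FPKM in conditional knockouts and to 15.2, 19.1 and 20.3 FPKM in controls, so that the sums did not overlap between the genotypes. Single genes did not overlap in 13.4% of all genes tested. Spi1, the gene of the myeloid factor PU.1, which opposes GATA1 in progenitors, was at 2.23, 2.96 and 2.28 FPKM in conditional knockouts and at 0.963, 1.22 and 1.27 FPKM in controls (log2 fold change 0.69 ± 0.15, SE, limma, adjusted p = 0.278). It was chosen after its values were seen.

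Of 9 tested megakaryocyte and platelet genes, all lay below 0, and 0 were called or had an unadjusted p under 0.05 in limma. With the replicate block 1 had such a p, Gp1ba (limma unadjusted p = 0.0465), and 0 were called. The share of all genes at such a p with the block is not given here. The levels of the 10 such genes with a row summed to 38.0, 48.4 and 30.4 FPKM in conditional knockouts. In controls they summed to 40.7, 44.6 and 54.6 FPKM, which overlapped. Pf4, the platelet factor gene, stood at 13.6, 16.9 and 9.44 FPKM in conditional knockouts and at 13.6, 14.4 and 18.7 FPKM in controls. The Y-linked gene Eif2s3y stood at 34.1, 52.8 and 55.6 FPKM in conditional knockouts and at 17.7, 20.01 and 41.0 FPKM in controls. Its part in the values of the X-linked members Alas2 and Gata1 was not tested.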
